A study of Mus musculus with 4 samples.

Results

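The early cardiomyocytes of day 6 gastruloids were 500 of the 5850 day 6 cells that passed the limits on quality, out of 6628 cells deposited for that day and 31330 in the whole series. They were chosen by a rule on their counts of RNA molecules (UMIs): at least 2000 UMIs, a mitochondrial share under 20%, at least 30 *Myl7* UMIs per 10000 UMIs of the cell, and at least 3 UMIs of *Tnni3*, *Ryr2*, *Actn2* and *Ttn* together. They made up 8.55% of the cells that passed the limits (95% exact binomial interval 7.84 to 9.29). The other 5350 of these cells served as the comparison.

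Gastruloids are aggregates of mouse embryonic stem cells that elongate and form derivatives of the germ layers in culture. All cells came from Zx1, a wild type line, and by the labels the groups differed in the day of collection. The aggregates received a pulse of the Wnt agonist Chiron early in culture, bFGF, VEGF and ascorbic acid for some days from day 4, and otherwise grew in N2B27, so day 6 cells were collected in the presence of the cardiogenic factors and day 11 cells after their removal. Each of days 4, 5, 6 and 11 was 1 library of pooled gastruloids, with no map from cells to gastruloids. With 1 library per day there was no test, and differences between days are differences between these libraries.

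Cardiomyocytes contract by the sliding of thick filaments of myosin over thin filaments of actin, which are anchored in Z discs. Calcium released from the sarcoplasmic reticulum binds the troponin complex on the thin filament and permits the sliding. The first cardiomyocytes of the mouse embryo form from mesoderm of the cardiac crescent, express atrial and ventricular isoforms side by side, still divide, and switch isoforms as the chambers form.

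Levels are CPM, the UMIs of a gene per 1000000 UMIs summed over a set of cells, in a 3′ library in which each captured molecule counts once whatever its length. Intervals are exact at 95% (Poisson for CPM, conditional binomial for ratios, Clopper-Pearson for shares) and cover counting error only. Over the 4 libraries in order of day, *Myl7*, the regulatory light chain of the atrium and of the early heart tube, stood at 49.9, 18.6, 1052 and 4600.0 CPM in all cells that passed the limits. *Tnnt2*, cardiac troponin T, stood at 0.726, 3.54, 349 and 1676 CPM, and *Nkx2-5*, a homeobox factor of the cardiac lineage, at 0.194, 0.301, 10.4 and 40.6 CPM. *Mesp1*, a factor of nascent mesoderm, stood at 165, 12.3, 0.630 and 0.135 CPM. No cell fulfilled the rule among 7202 at day 4 or 7408 at day 5, which by a floor of 3 cells allows shares of up to 0.0417% and 0.0405%, and the highest *Myl7* there was 16.5 and 9.90 per 10000 UMIs. At day 11, 1596 of 8730 cells did (18.3%, 17.5 to 19.1).

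The reference holds promoter sequence for genes that were higher in the early cardiomyocytes than in the other day 6 cells. The 250 bases before the start of 5 of them are given here, as RefSeq lists them for GRCm38.p6, from 5′ to 3′ on the strand of the gene. *Myl7* (chr11:5898783-5899032, minus strand), *Actc1* (chr2:114052876-114053125, minus strand) and *Myl3* (chr9:110763428-110763677, plus strand) encode filament proteins. *Pgam2* (chr11:5803797-5804046, minus strand), a phosphoglycerate mutase of muscle, and *Hspb3* (chr13:113663677-113663926, minus strand), a small heat shock protein of muscle, lie outside the filaments. Promoters of 14 genes were read, and these 5 are shown because they held a CArG box or MEF2 site, while the other 9, among them *Tnnt2*, *Myl2*, *Myl4*, *Myh6*, *Tnni3* and *Nkx2-5*, held neither in this window. Capitals mark matches to the CArG box (*Myl7*, *Actc1*, *Myl3*), to the MEF2 site (*Pgam2*, *Hspb3*) or to GATAA (*Myl7*, *Myl3*).
Myl7: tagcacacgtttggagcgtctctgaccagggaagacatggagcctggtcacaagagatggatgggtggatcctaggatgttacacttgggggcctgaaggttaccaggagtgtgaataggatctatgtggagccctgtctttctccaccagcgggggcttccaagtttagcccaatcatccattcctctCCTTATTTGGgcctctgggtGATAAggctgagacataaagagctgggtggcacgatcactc
Actc1: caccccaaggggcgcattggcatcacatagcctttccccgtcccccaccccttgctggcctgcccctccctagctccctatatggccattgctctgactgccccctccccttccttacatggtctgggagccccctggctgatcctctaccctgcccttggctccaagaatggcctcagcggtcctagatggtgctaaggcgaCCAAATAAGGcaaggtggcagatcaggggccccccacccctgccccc
Myl3: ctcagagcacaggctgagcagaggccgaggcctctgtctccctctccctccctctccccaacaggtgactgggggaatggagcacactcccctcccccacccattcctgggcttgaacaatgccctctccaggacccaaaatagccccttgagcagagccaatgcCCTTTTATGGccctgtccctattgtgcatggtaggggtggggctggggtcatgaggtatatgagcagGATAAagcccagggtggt
Pgam2: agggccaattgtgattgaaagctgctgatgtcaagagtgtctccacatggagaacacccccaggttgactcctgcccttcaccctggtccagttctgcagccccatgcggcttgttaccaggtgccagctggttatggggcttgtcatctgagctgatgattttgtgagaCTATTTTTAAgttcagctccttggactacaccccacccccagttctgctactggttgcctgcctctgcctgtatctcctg
Hspb3: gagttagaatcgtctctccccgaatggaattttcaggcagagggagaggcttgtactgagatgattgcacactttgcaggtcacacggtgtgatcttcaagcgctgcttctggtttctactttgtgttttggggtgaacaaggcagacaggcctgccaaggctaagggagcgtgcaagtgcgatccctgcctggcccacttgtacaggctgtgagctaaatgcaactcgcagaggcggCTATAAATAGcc
The CArG box is the sequence bound by SRF, which acts with myocardin, and the MEF2 site that of MEF2 factors. Counting back from the start, the CArG box lay at bases -61 to -52 in *Myl7*, -47 to -38 in *Actc1* and -85 to -76 in *Myl3*. The MEF2 match lay at -80 to -71 in *Pgam2* and at -12 to -3 in *Hspb3*, where it overlaps a TATAAA. Searched on both strands in windows of 250 bases, the CArG box was found in 1.47% of 32851 mouse promoters, the MEF2 site in 2.92%, GATAA in 22.6% and CATTCC, the motif of TEAD factors, in 12.6%. Of 41 genes of the thick filament, the thin filament and the Z disc, 35 matched an entry, with 48 promoters. The CArG box stood in 8 of these 48 (16.7%), the MEF2 site in 6 (12.5%), GATAA in 13 (27.1%) and CATTCC in 14 (29.2%). These matches are a description of the windows and were not related to binding.

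The genes of the rule describe how the cells were picked. Members held a median of 94.3 *Myl7* UMIs per 10000 (10th to 90th percentile 38.1 to 210.2) and 87 UMIs of the 4 other genes of the rule (21 to 273.1), against medians of 0.188 and 0 in the other cells. The limit fell within a continuous range. Members with 30 to 40 *Myl7* per 10000 numbered 63, and 93 cells with 3 or more UMIs of the 4 genes stood just outside at 20 to 30. *Tnnt2* was 1242 CPM in the former and 818 in the latter, *Nkx2-5* 22.4 and 17.7, and *Top2a* 189.9 and 324. In all, 916 cells, these 93 included, had 3 or more UMIs of the 4 genes but too little *Myl7*, and 10 had the *Myl7* but fewer than 3 of those UMIs, with a median depth of 8059 UMIs.

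**Figure D1:**
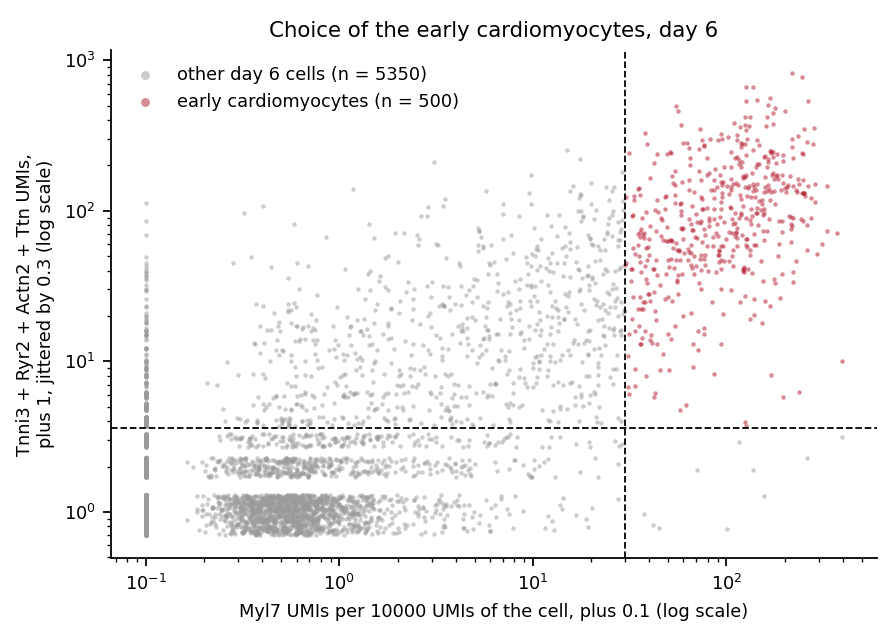
Each point is a day 6 cell, placed by *Myl7* UMIs per 10000 UMIs plus 0.1 and by the summed UMIs of *Tnni3*, *Ryr2*, *Actn2* and *Ttn* plus 1, both on log scales, with dashed lines at the limits of the rule. The 500 members in red fill the upper right and adjoin the other cells in grey, with 63 members at 30 to 40 *Myl7* per 10000 UMIs.

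Markers that the rule did not use were present in nearly all or most members. A *Tnnt2* UMI was found in 499 of 500 members and an *Nkx2-5* UMI in 352. After thinning of each cell to 5000 UMIs, which 487 members, 5248 other cells and 501 of the 502 endothelial cells allowed, *Tnnt2* was found in 98.6% of members, 13.7% of the other cells and 6.79% of endothelial cells. The endothelial cells, other cells with 3 or more UMIs of *Cdh5*, *Pecam1*, *Emcn* and *Esam*, serve as a type that should lack cardiac contractile genes, and had a median depth of 36731 UMIs against 24871.5 in members. *Nkx2-5* was found in 32.6% of members, 1.94% of the other cells and 0.200% of endothelial cells, and *Tnnc1*, cardiac troponin C, in 89.5% of members, 5.39% of the other cells and 2.60% of endothelial cells. Members resembled the other cells in depth (24871.5 against 25642.0 UMIs), in genes found (4885.0 against 4996.0) and in mitochondrial share (3.25% against 2.81%). Day 6 shared 16 cell barcodes with day 11, 19 with day 5 and 5 with day 4, among them 1, 1 and 0 members.

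Since members were chosen by contractile genes, the levels of such genes describe the choice and support nothing further. All 12 tested genes of the thick filament, of 13 on the list, were at least 2-fold higher in members, beside 5.40% of the 11003 genes tested (those with 500 or more UMIs in both sets together). The median log2 ratio of the list was 5.78, against -0.11 for all genes tested. *Myl7* itself stood at 10498 CPM against 156 and *Ttn*, the spring of the sarcomere, at 3201 CPM against 118, both used by the rule. The light chains *Myl4*, atrial and embryonic, and *Myl3*, ventricular and slow muscle, stood at 4098 CPM (4066 to 4129.9) against 91.8 (90.4 to 93.3) and 1356 CPM (1338 to 1374) against 7.42 (7.01 to 7.85). The ratio of *Myl3* (183-fold, 172 to 194) exceeded that of *Myl4* (44.6-fold, 43.9 to 45.4). The heavy chains *Myh6* and *Myh7* were 486 CPM against 3.15 and 494 CPM against 5.06, and the ventricular regulatory light chain *Myl2* 476 CPM against 1.77. *Mybpc3*, cardiac myosin binding protein C, stood at 147 CPM. *Myom2*, an M-band protein of mature muscle, was below the limit for testing at 1.08 CPM.

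The thin filament followed the same direction, with 11 of 11 tested genes past 2-fold and a median log2 ratio of 3.83. *Actc1*, cardiac actin, was 5302 CPM (5266 to 5339) against 40.7 (39.7 to 41.7) (130.3-fold, 127 to 134). Smooth muscle actin *Acta2*, which early cardiomyocytes express for a time, was 4088 CPM against 131, whereas skeletal actin *Acta1* was 22.9 CPM against 0.327. Among the troponins, slow skeletal *Tnni1*, the fetal inhibitory subunit of the heart, stood at 1738 CPM against 171 and *Tnni3*, the adult cardiac subunit and a gene of the rule, at 444 CPM against 3.46. *Tnnc1* was 1559 CPM against 16.5 and *Tpm1*, tropomyosin, 4665 CPM against 363.

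At the Z disc, 10 of 10 tested genes passed 2-fold. *Csrp3*, a LIM protein of the Z disc, was 53.8-fold higher and *Cryab*, a chaperone of desmin and titin, 92.1-fold. *Actn2*, alpha-actinin, was 81.3 CPM against 0.811. *Myoz2* and *Xirp2*, late Z disc and junction genes, had 1 and 2 UMIs in all members. These last 2 genes were at the limit of detection, unlike the other Z disc genes.

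Of 11 tested calcium handling genes, 9 passed 2-fold, with a median log2 ratio of 3.62. The sodium-calcium exchanger *Slc8a1* was 370.0 CPM against 14.6, the reticulum pump *Atp2a2* 432 CPM against 73.3, and the release channel *Ryr2*, of the rule, 177 CPM against 8.72. Phospholamban (*Pln*), the inhibitor of the pump, stood at 32.2 CPM against 0.460. Of the calsequestrins, which buffer calcium in the reticulum, members held 691 UMIs of *Casq1*, the skeletal form, and 1 of *Casq2*, the cardiac form. Triadin (*Trdn*), which links calsequestrin to the release channel, was 40.1 CPM against 0.127. *Sln*, the atrial inhibitor of the pump, had 9 UMIs.

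Some of these ratios moved by over 1.5 times under another choice. Without the cells of highest doublet score the ratio of *Actc1* was 209.7, of *Myh6* 249 against 154, of *Mybpc3* 149 against 98.2 and of *Csrp3* 83.4. With means over cells in place of summed UMIs it was 157 against 269 for *Myl2*, 118 for *Myl3*, 58.5 against 103 for *Casq1* and 168.8 against 316 for *Trdn*. With *Myl7* at 50 or more per 10000 it was 45.4 against 70.0 for *Pln* and 170.1 for *Trdn*.

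Of 11 tested genes of pacemaking and conduction 7 were at least 2-fold higher and 1 was at least 2-fold lower, beside 5.40% and 8.41% of all genes tested. The pacemaker channel *Hcn4*, which the first heart field expresses widely, was 63.0 CPM against 7.85. *Shox2* and *Vsnl1*, which mark the sinus venosus and the sinus node, were 80.3 CPM against 14.7 and 112 CPM against 15.7. The lower gene was *Gja1*, the connexin of the working ventricle, at 16.3 CPM against 56.1. Among the intercalated disc genes, 7 of 11 passed 2-fold, among them desmoplakin (*Dsp*, 293 CPM against 52.9), N-cadherin (*Cdh2*, 212 CPM against 77.4) and *Popdc2*, a cyclic AMP binding membrane protein (118 CPM against 14.0).

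Cardiac transcription factors were less uniform than the contractile genes. Of 22 tested, 9 were at least 2-fold higher in members and none at least 2-fold lower, with a median log2 ratio of 0.74. Of all genes tested, 5.40% were higher and 8.41% lower. *Nkx2-5* was 81.2 CPM (76.8 to 85.8) against 3.73 (3.44 to 4.04) (21.8-fold, 19.8 to 24.0) and myocardin (*Myocd*), the partner of SRF, 84.2 CPM against 6.11 (13.8-fold). *Hopx*, a homeodomain protein of the early myocardium, was 6.92-fold higher, *Mef2c* 4.20-fold, *Tbx5* 3.60-fold and *Tbx20* 3.51-fold. *Gata4* was 2.38-fold higher, *Gata6* 1.99-fold and *Hand2* 1.56-fold. *Hand1* was 92.7 CPM against 82.8 and *Isl1*, a factor of the second heart field, 54.7 CPM against 34.6 (1.58-fold). *Nkx2-5* and *Myocd* thus stood furthest from the other cells among the tested factors, while *Gata6*, *Hand2*, *Hand1* and *Isl1* stayed within 2-fold.

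Chamber genes were unevenly represented. The atrial list had 2 of 5 tested genes at least 2-fold higher in members and 0 at least 2-fold lower. Of all genes tested, 5.40% were higher and 8.41% lower. The summed level of the atrial list was 4449 CPM against 366, most of it in members from *Myl4* alone (4098 against 91.8). That of the ventricular list was 2930 CPM against 165, with *Myl3* at 1356 against 7.42. The sums thus do not compare the breadth of the 2 lists. The ventricular list had 6 of 7 tested genes past 2-fold, with *Myl2*, *Myl3*, *Myh7*, *Pln*, *Mpped2* and *Lbh* on this side and *Hey2*, a repressor of atrial genes in the ventricle, at 4.33 CPM against 6.81. *Irx4*, a ventricular factor, was 16.4 CPM against 1.12. The natriuretic peptides, which mark the working and trabecular myocardium, were nearly absent, with 44 UMIs of *Nppa* and 1 of *Nppb* in all members. *Nr2f1* and *Nr2f2*, factors of the atrium and venous pole, were 179 CPM against 104 and 93.2 CPM against 140.4.

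Among secreted ligands, *Wnt2*, expressed at the venous pole, was 249.5 CPM (242 to 257) against 28.6 (27.8 to 29.4) (8.73-fold, 8.37 to 9.11). *Bmp4* was 189.7 CPM against 41.1, *Bmp2* 67.1 CPM against 17.4, *Wnt11* 18.3 CPM against 2.78 and the Wnt antagonist *Sfrp5* 128 CPM against 39.0. *Tdgf1*, a Nodal co-receptor found in the outflow myocardium, was 45.4 CPM against 1.44. The BMP target genes *Id1* and *Id3* were lower, at 191 CPM against 336 and 356 CPM against 603, though within 2-fold. Of the BMP list, 4 of 12 tested genes were past 2-fold on the higher side and 0 on the lower. For the WNT list these counts were 3 and 0 of 13, beside 5.40% and 8.41% of all genes tested. The neuregulin receptor *Erbb4* was 20.4 CPM against 1.91 and its ligand *Nrg1*, which endocardium releases, 2.23 CPM against 9.44.

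Of 21 glycolytic genes 4 passed 2-fold, beside 5.40% of all genes tested, with a median log2 ratio of 0.61. These were *Pgam2* (520.0 CPM against 16.3), the muscle enolase *Eno3* (419 CPM against 102), the phosphofructokinase *Pfkp* (120.2 CPM against 37.2) and hexokinase *Hk1* (96.3 CPM against 16.1), whereas *Gapdh* was 6535 CPM against 4458. *Cox6a2*, the cytochrome oxidase subunit of heart and muscle, was 201 CPM against 1.99 and its ubiquitous partner form *Cox6a1* 288 CPM against 166. *Fabp3*, the fatty acid carrier of heart, was 201 CPM against 10.1, and *Ppargc1a*, a co-activator of mitochondrial genes, 30.4 CPM against 2.60. Of 13 tested genes of fatty acid oxidation, 4 passed 2-fold, with a median log2 ratio of 0.85. The muscle creatine kinase *Ckm* and myoglobin (*Mb*) stood at 0.829 and 6.12 CPM.

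Genes of the cell cycle were lower in members. Of 16 S phase genes, 11 were at least 2-fold lower, and of 14 genes of G2 and M phase 6 were, with median log2 ratios of -1.12 and -0.97 and none at least 2-fold higher. Of all genes tested, 8.41% were lower and 5.40% higher. *Top2a*, a topoisomerase of dividing cells, was 177 CPM against 370.2 and cyclin D1 (*Ccnd1*) 45.1 CPM against 144. Without the cells of highest doublet score the ratio of *Ccnd1* was 0.179 against 0.313. Of 10 tested genes of cycle entry and arrest, 4 were at least 2-fold lower and 1 higher, the inhibitor *Cdkn1c*, at 2374 CPM (2350.5 to 2399) against 1015 (1009.9 to 1019.7). After thinning to 5000 UMIs, a UMI of *Mki67* or *Top2a* was found in 115 of 487 members (23.6%, 19.9 to 27.6), in 49.7% of the other cells (48.4 to 51.1) and in 37.3% of endothelial cells. Without thinning these shares were 42.2% of members and 68.3% of the other cells. The cells of highest doublet score included 53 of the 500 members (10.6%) and 7.03% of the other cells. Without them the thinned shares were 18.0% of members and 48.1% of the other cells.

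**Figure D2:**
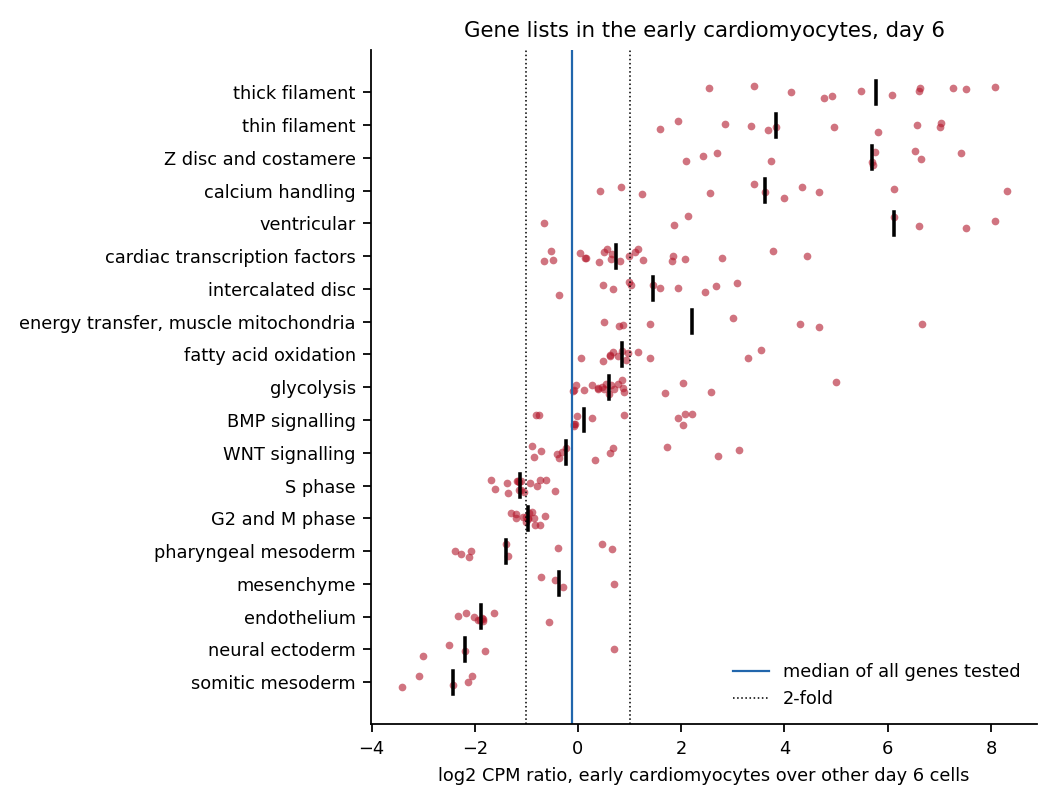
Each point is a tested gene of the list on the left, placed by its log2 CPM ratio of early cardiomyocytes over the other day 6 cells, with a black bar at the list's median and a blue line at the median of all genes tested (-0.11). Contractile lists lie to the right, with medians of 5.78 for the thick and 3.83 for the thin filament, and those of S phase (-1.12) and of most other cell types to the left.

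Genes of other lineages were mostly low in members. At least 2-fold lower were 9 of 10 endothelial, 4 of 4 endocardial, 5 of 6 endodermal, 4 of 5 neural, 5 of 5 somitic and 6 of 9 tested genes of pharyngeal mesoderm. Of all genes tested, 8.41% were. The other day 6 cells include cells with such markers, so these counts also describe the comparison set. Summed over its list, the endothelial level had a median of 0.518 per 10000 UMIs in members and 0.599 in the other cells, with highest values of 21.9 and 83.1. At least 3 UMIs of the 4 endothelial genes above were held by 16 members (3.2%, against 9.38% of the other cells). For 4 endodermal, neural or somitic genes these were 7, 15 and 20 members. They made up 1.4%, 3% and 4% of members, against 5.55%, 12.65% and 23.96% of the other cells. Markers of mesenchyme did not separate the sets, with 0 of 4 past 2-fold and *Twist1* at 122 CPM against 166. Of the pluripotency genes, *Dppa5a* was 1.02 CPM against 41.5. Their part in the results was not tested.

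Skeletal muscle genes fell below the limit for testing except for 2 that the early heart shares. Summed over the list, they stood at 155.8 CPM in members against 10.2 in the other cells. Of 20 genes of the list, 7 had no UMI in members and 10 had 3 or fewer, and the regulators *Myf5*, *Myod1*, *Myog* and *Myf6* were among the 7, where 3 UMIs would give 0.191 CPM. The tested members of the list were *Casq1* (44.0 CPM against 0.430) and *Myl1*, an essential light chain of fast and embryonic muscle (83.6 CPM against 0.417, 200.4-fold, 157 to 259, but 117 with means over cells). Among smooth muscle genes *Cnn1*, calponin, was 168 CPM against 4.24, whereas the smooth muscle heavy chain *Myh11* had 3 UMIs in all members. Of the blood gene *Hba-x*, 877 of its 897 UMIs in members lay in 1 cell.

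Outside the lists, the 15 genes with the highest ratios were *Hspb3* (67.3 against 0.520 CPM), *Atcayos*, *Lrrc10*, *Hspb2*, *Asb2*, *Thbs4*, *Itgb1bp2*, *Sh3bgr*, *Hspb1*, *Apobec2*, *Myl9*, *Rrad*, *Smpx*, *Fbxl22* and *Trim55*, with ratios from 129.4 down to 37.0. *Lrrc10*, a leucine-rich repeat protein particular to cardiomyocytes in the adult, was 67.1 against 0.569 CPM. *Asb2*, a ubiquitin ligase subunit that acts on filamins, was 157 against 1.78 CPM. *Sh3bgr*, a gene of heart and skeletal muscle, was 1012 against 16.1 CPM and so the most abundant of the 15. *Hspb2* and *Hspb1*, further small heat shock proteins, were 209 against 2.08 CPM and 308 against 5.71 CPM. *Atcayos* lies opposite *Atcay*, and reads of the pair can be told apart by strand alone. The 10 genes with the lowest ratios were *Hoxb5os*, *Sfrp2*, *Hoxb9*, *Ifitm1*, *Hoxaas3*, *Rprm*, *Emb*, *Ramp2*, *Tshz2* and *Igdcc3*. *Hoxb9*, a Hox gene of the trunk, was 12.6 against 64.9 CPM, and *Sfrp2*, a Wnt antagonist of paraxial mesoderm, 12.6 against 67.5 CPM.

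Members varied widely in the amount of sarcomere RNA. The sum of 10 genes (*Tnnt2*, *Tnnc1*, *Tnni1*, *Actc1*, *Tpm1*, *Myl3*, *Myl4*, *Myh6*, *Myh7* and *Mybpc3*) ran from 21.3 to 789.1 UMIs per 10000, and members were cut into a bottom tertile of 167 cells (up to 139.5), a middle tertile of 166 and a top tertile of 167 (from 289). These tertiles were set on values of the same cells, and the 10 summed genes, like those of the rule, describe the split and are no result of it. Depth was similar, with medians of 22543, 25705 and 25884 UMIs. Of 2878 genes tested between the top and the bottom tertile, 4.90% were at least 2-fold higher and 3.68% at least 2-fold lower.

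From the bottom to the top tertile, *Myl2* was 76.9, 188 and 1288 CPM, *Cryab* 93.2, 272 and 831 CPM and *Csrp3* 91.4, 191 and 362 CPM. *Cox6a2* was 61.2, 150.2 and 426 CPM, *Pgam2* 211, 418 and 1005 CPM and *Trdn* 9.81, 23.8 and 95.1 CPM. All 8 tested genes of the Z disc, *Actn2* included, 5 of 6 of calcium handling, 5 of 8 of energy transfer and 5 of 19 of glycolysis were at least 2-fold higher in the top tertile. Of fatty acid oxidation 0 of 7 tested genes were, of pacemaking and conduction 0 of 5 and of cardiac transcription factors 3 of 16. *Nkx2-5* was 36.4, 66.4 and 152 CPM and *Myocd* 52.5, 91.4 and 113 CPM, while *Gata4* was 74.7, 71.1 and 69.6 CPM and *Tbx20* 70.0, 63.6 and 82.5 CPM. Thus *Nkx2-5* was higher where sarcomere RNA was higher, and *Gata4* and *Tbx20* differed by less than 2-fold. The 10 highest ratios belonged to *Itgb1bp2*, which encodes melusin of the costamere, *Myl2*, *Actn2*, *Myl3*, *Hspb1*, *Myh6*, *Actc1*, *Cryab*, *Myl1* and *Atcayos*.

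The bottom tertile held more RNA of division. All 9 tested genes of G2 and M phase and 8 of 9 of S phase were at least 2-fold lower in the top tertile. From bottom to top, *Top2a* was 276, 190.4 and 45.2 CPM, *Cenpf*, a kinetochore protein, 188, 176 and 26.6 CPM, and *Mki67* 82.9, 60.6 and 21.2 CPM. After thinning, a UMI of *Mki67* or *Top2a* was found in 36.0% of the bottom tertile (28.6 to 43.8), 26.7% of the middle tertile and 8.02% of the top tertile (4.34 to 13.3). *Cdkn1c* went the other way, at 1648, 2402 and 3198 CPM. Among the genes lower in the top tertile were also *Twist1* (176, 124 and 54.6 CPM), the venous pole factor *Nr2f2* (139.9, 88.3 and 43.9 CPM), *Sfrp5* (167, 140.0 and 68.8 CPM) and *Rgs5*, a regulator of G protein signalling (17.6 against 116 CPM in the top against the bottom tertile). Among the lowest ratios were those of *Hba-x*, which rested on the 1 cell above, *Hist1h2ap*, *Cenpf*, *Rgs5*, *Pclaf*, *Top2a*, *Cdca3*, *Flrt3* and *Rrm2*. Without the cells of highest doublet score, the ratio of the top over the bottom tertile went from 16.8 to 80.0 for *Myl2*, from 8.91 to 14.8 for *Cryab*, from 6.95 to 12.1 for *Cox6a2*, from 9.69 to 16.1 for *Trdn*, from 8.57 to 15.8 for *Myl1*, from 0.164 to 0.0638 for *Top2a*, from 0.142 to 0.0408 for *Cenpf* and from 0.0133 to 1.20 for *Hba-x*. *Pclaf*, a replication factor, went from 0.151 to 0.0915. Of genes of the rule or the sum, *Actn2* went from 16.0 to 30.4, *Tnni3* from 8.02 to 15.04 and *Myl3* from 13.5 to 62.3, and *Itgb1bp2* went from 17.7 to 61.8. The share with *Mki67* or *Top2a* was then 4.86% in the top and 29.4% in the bottom tertile.

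**Figure D3:**
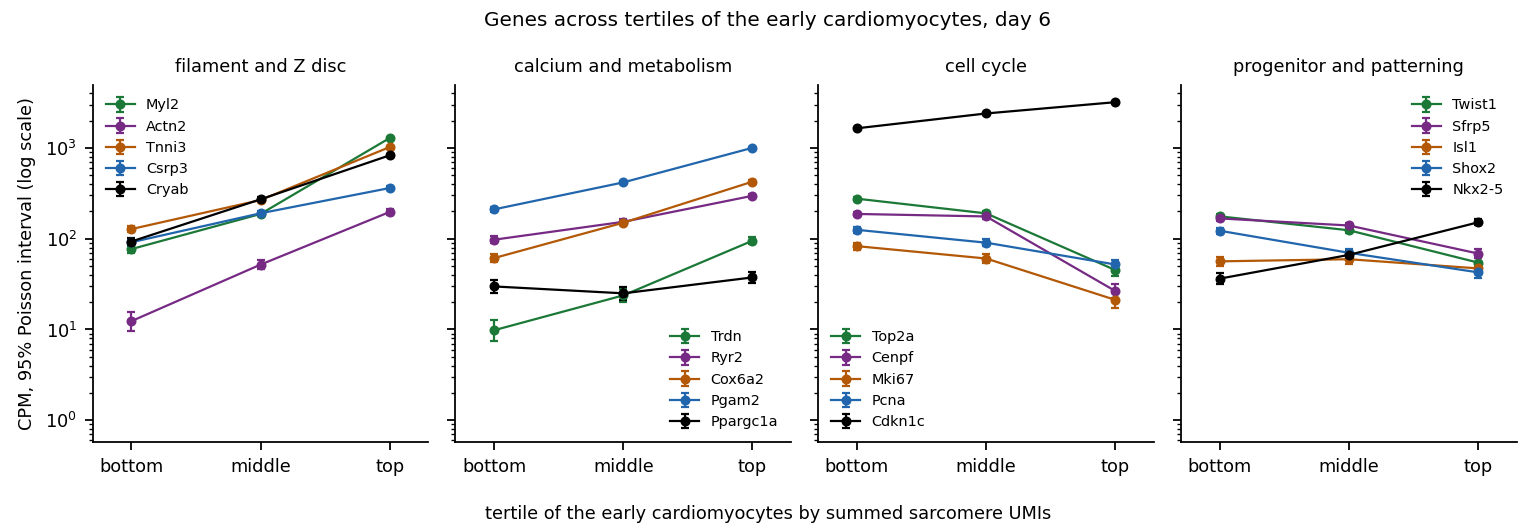
CPM (log scale, bars are 95% Poisson intervals) of 20 genes in the bottom, middle and top tertile of the early cardiomyocytes by summed sarcomere UMIs. *Myl2* and *Cryab* are higher in each further tertile, *Top2a* and *Cenpf* lower in the top tertile at 45.2 and 26.6 CPM, and *Isl1* within 2-fold throughout.

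*Myl2*, the gene of the ventricular light chain, was carried by few members. No *Myl2* UMI was found in 335 of 500, and the 50 members with most of it held 88.8% of its UMIs, against 27.0% for *Myl7* and 21.7% for *Tnni1*. *Myl3* was at 0 in 154 members and *Tnni3* in 210. Thinned to 5000 UMIs, *Myl2* was found in 98 of 487 members (20.1%, 16.7 to 24.0), 0.934% of the other cells and 1.80% of endothelial cells. The 98 were deeper, with a median of 30417 UMIs against 23958 in the 389 others, and the part of depth was not tested.

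Between *Myl2*-positive and *Myl2*-negative members, 1.22% of 4086 genes tested were at least 2-fold higher and 0.685% at least 2-fold lower. The 10 highest after *Myl2* itself began with *Cck*, a peptide hormone gene also found in the early heart (811 against 90.2 CPM, a ratio of 8.99 (8.38 to 9.64)), and held *Tesc*, *Lrrc10*, *Trdn*, *Myl1*, *Gal*, *Pygm*, *Itgb1bp2* and *Myl3*. *Tesc*, a calcium-binding protein, was 114 against 17.1 CPM, *Lrrc10* 180.5 against 27.8 CPM and *Pygm*, muscle glycogen phosphorylase, 104 against 23.6 CPM. *Hopx* was 275 against 99.0 CPM, *Pln* 62.8 against 21.4 CPM and *Cox6a2* 396 against 132 CPM. The 10 lowest were, after *Hba-x*, *Id4*, *Shox2*, *Mab21l2*, *Vsnl1*, *Sfrp5*, *Adm*, *Flrt3*, *Bmp4* and *Tenm4*. *Shox2* was 22.4 against 101 CPM, a ratio of 0.222 (0.177 to 0.276) and *Sfrp5* 43.5 against 158 CPM. *Hcn4* was 34.0 against 72.9 CPM, *Isl1* 30.5 against 63.1 CPM and *Nr2f1* 92.1 against 209 CPM. Of the lists, 6 of 12 tested thick filament genes, 1 of 10 thin filament genes, 3 of 10 Z disc genes and 2 of 10 calcium handling genes were at least 2-fold higher in *Myl2*-positive members, and 3 of 6 pacemaker and conduction genes at least 2-fold lower. *Myl2*, a thick filament gene, is among the 6 by the choice of the split. The sarcomere sum also differed, with medians of 358.3 per 10000 in positive and 169.3 in negative members, and its part was not tested. The share with *Mki67* or *Top2a* was 24.5% in positive and 23.4% in negative members, with overlapping intervals (16.4 to 34.2 and 19.3 to 27.9). Without the cells of highest doublet score, which left 81 positive and 353 negative members, the *Top2a* ratio went from 0.663 to 0.388 and that of *Hba-x* from 0.0129 to 0.819. The shares with *Mki67* or *Top2a* in this split keep those cells and were not taken without them.

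A second split, chosen after the values had been seen, used the sinus venosus genes *Shox2* and *Vsnl1*. Together they reached 3 or more UMIs per 10000 in 128 members and stayed under 0.5 in 277. Of 3371 genes tested, 0.890% were at least 2-fold higher in the 128 and 1.13% at least 2-fold lower. These sets lay closer in sarcomere sum than the top and bottom tertiles, with medians of 175.0 and 216.5 per 10000. The 128 leaned to the bottom tertile (39.8%, with 31.25% in the top) and the 277 to the top (38.3%, with 28.5% in the bottom). Depth was similar (25143 and 24609 UMIs), as were the shares with *Mki67* or *Top2a* (22.0% and 22.8%).

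In the 128 members, *Id4*, an inhibitor of bHLH factors, was 150.0 against 6.52 CPM, a ratio of 23.0 (17.5 to 30.8), *Nr2f2* 206 against 41.0 CPM and *Nr2f1* 351 against 91.8 CPM. The Wnt genes *Wnt2* and *Sfrp1* were 462 against 163 CPM and 394 against 131 CPM. *Tbx5* was 92.2 against 39.9 CPM, *Hcn4* 113 against 42.3 CPM, *Bmp4* 302 against 136 CPM and *Atp2a2* 684 against 325 CPM. The rest of the 10 highest were *Lxn*, *Flrt3* and *Phlda1*.

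In the 277 members with little *Shox2* and *Vsnl1*, *Myl2* was higher, with 31.5 against 761 CPM, the 128 given first. *Hand1*, a factor of the outer curvature of the left ventricle, was 22.1 against 121 CPM, a ratio of 0.183 (0.143 to 0.231). *Tdgf1* was 3.97 against 70.6 CPM, *Pcp4*, a calmodulin-binding protein, 3.40 against 82.0 CPM and *Lmo2*, a LIM-only protein, 3.97 against 75.5 CPM. *Cck* was 49.9 against 408 CPM, *Mpped2* 111 against 487 CPM and *Cdkn1c* 1085 against 3139 CPM. *Ramp2*, *Itm2a* and *Gal* completed the 10 lowest. A *Myl2* UMI was found after thinning in 9 of 127 of the former set (7.09%) and 75 of 267 of the latter (28.1%). Without the cells of highest doublet score the ratio of *Nr2f2* went from 5.03 to 8.37.

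**Figure D4:**
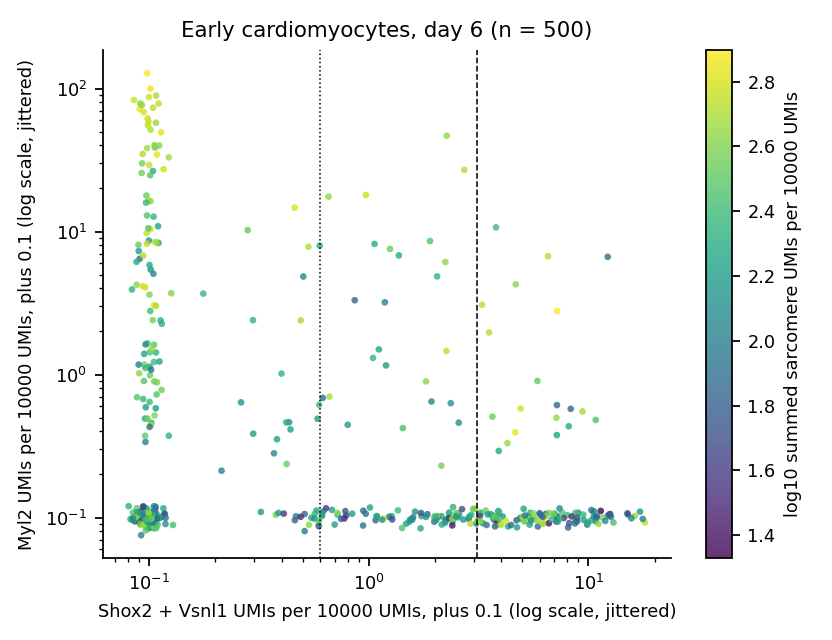
Each point is 1 of the 500 early cardiomyocytes, placed by *Shox2* plus *Vsnl1* and by *Myl2*, in UMIs per 10000 UMIs plus 0.1 on jittered log scales, and coloured by summed sarcomere UMIs. Cells with much *Myl2* lie mostly at the left edge, and cells right of the dashed line (3 per 10000) are mostly at 0 *Myl2*, with both high and low sarcomere sums among them.

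Isoform shares were taken over summed UMIs and per cell. Of the heavy chain UMIs of all members, 49.6% (48.8 to 50.4) were *Myh6* and the rest *Myh7*. In the 312 members with 10 or more such UMIs, the share per cell ran from 7.92% to 92.8% between the 10th and 90th percentile, with a median of 42.1%, and 39 cells lay under 10% and 44 over 90%. *Myh6* made up 76.6% (74.96 to 78.2) of these UMIs in the members high in *Shox2* and *Vsnl1* and 41.2% (40.2 to 42.1) in those low in them, while it was 50.6% (49.4 to 51.8) in *Myl2*-positive and 48.9% (47.8 to 49.9) in *Myl2*-negative members. Between the former 2 sets *Myh7* was 183 against 692 CPM. Of the troponin I UMIs, *Tnni3* made up 20.3% (19.9 to 20.8), with 300 of 487 members under 10% and 0 over 90%. That share was 9.35% (8.70 to 10.0) in the bottom tertile by sarcomere UMIs and 29.8% (29.1 to 30.5) in the top tertile. *Tnni3* is a gene of both the rule and this share. Of the *Actc1* and *Acta2* UMIs 56.5% were *Actc1*.

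Genes of the response to low oxygen also varied among members. This list of 12 genes, chosen after the data had been seen, had a summed median of 10.9 UMIs per 10000 in members (10th to 90th percentile 4.58 to 22.8) and 7.03 in the other cells (2.32 to 15.9). Medians were 9.46, 11.9 and 11.8 in the bottom, middle and top tertile by sarcomere UMIs. Of 11 tested genes of the list, 2 were at least 2-fold higher in members than in the other cells, beside 5.40% of all genes tested.

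The same rule at day 11 found 1596 cells, which were shallower (median 19903.5 against 24871.5 UMIs). Of 8296 genes tested between the 2 sets, 7.63% were at least 2-fold higher at day 11 and 5.52% at least 2-fold lower. The libraries differ in the software version of the matrix header (3.1.0 against 6.0.1), depth and culture time, which cannot be told apart, and ratios in the cells outside the rule are given beside some values. The thick and thin filament genes as a whole differed less than the Z disc genes, with median log2 ratios of 0.75, 0.70 and 1.72 beside -0.08 for all genes tested.

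*Myl7* was 10498 CPM at day 6 and 16169 at day 11, *Tnnt2* 3391 CPM at day 6 and 5609.7 at day 11 and *Ttn* 3201 CPM at day 6 and 3492 at day 11, all within 2-fold. *Tnni3* was 444 CPM at day 6 and 2176 at day 11 (4.91-fold, 4.79 to 5.03) and *Tnni1* 1738 CPM at day 6 and 2262 at day 11, and the *Tnni3* share of troponin I UMIs was 49.0% at day 11. *Myh6* was 486 CPM at day 6 and 2366 at day 11 and *Myh7* 494 CPM at day 6 and 928 at day 11, with a *Myh6* share of 71.8%. *Acta2* was the only thin filament gene at least 2-fold lower, at 4088 CPM at day 6 and 1795 at day 11, against a day 11 over day 6 ratio of 1.35 in the cells outside the rule. *Tnni3* was used to choose the cells on both days, so its level and share are a description.

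*Pln* was 32.2 CPM at day 6 and 399 at day 11 (12.4-fold, 11.3 to 13.6), *Casq1* 44.0 CPM at day 6 and 306 at day 11 and *Cox6a2* 201 CPM at day 6 and 2579 at day 11 (12.8-fold, 12.4 to 13.3). The atrial genes *Nppa* and *Sln* were 2.81 CPM at day 6 and 170.2 at day 11 and 0.574 CPM at day 6 and 153 at day 11, while *Nppb* was at 2.05 CPM. *Myoz2*, with 1 UMI at day 6, had the highest ratio of those ranked (845-fold, 151.6 to 33403), followed by *Sln*, *Adprhl1*, *Nppa*, *Mlf1*, *Mgp*, *Cav1*, *Cox8b*, *Clu* and *Calca*. *Shox2* was 80.3 CPM at day 6 and 322 at day 11 and *Hcn4* 63.0 CPM at day 6 and 67.6 at day 11. Of 13 tested calcium handling genes 5 and of 14 tested Z disc genes 10 were at least 2-fold higher at day 11, and none was at least 2-fold lower. Of all genes tested, 7.63% were higher and 5.52% lower.

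Genes of patterning and division were among those lower at day 11. The 10 lowest were *Cck* (7.08 against 277 CPM, with day 11 first), *Prtg*, *Rgs5*, *Hist1h2ap*, *Pcp4*, *Sfrp5*, *Hand1*, *Cadm1*, *Trap1a* and *Wnt2*. *Hand1* was 92.7 CPM at day 6 and 9.71 at day 11, *Sfrp5* 128 CPM at day 6 and 12.9 at day 11 and *Wnt2* 249.5 CPM at day 6 and 38.1 at day 11, and the cells outside the rule had day 11 over day 6 ratios of 0.0424, 0.0329 and 0.0681 for the same genes. *Mpped2* was 346 CPM at day 6 and 77.0 at day 11, against 1.18 outside the rule. *Tdgf1* had no UMI in the day 11 cells, which makes it at least 626.4-fold lower with a floor of 3 UMIs over the set. Of the second heart field list, 6 of 6 tested genes were at least 2-fold lower, and of the first heart field list 4 of 7. Of all genes tested, 5.52% were. In all cells that passed the limits, *Isl1* was 36.3 CPM at day 6 and 15.8 at day 11. How far the cells outside the rule shared the lower levels of these lists was not tested. Of 15 tested S phase genes, 10 were at least 2-fold lower at day 11, beside the same 5.52%. *Mki67* or *Top2a* was found in 17.02% of the thinned day 11 cells (15.2 to 19.0), against 23.6% at day 6. The day 6 share was 18.0% without the cells of highest doublet score. The day 11 share keeps such cells, which were 251 of the 1596 (15.7%, against 6.00% of the other day 11 cells), and is not comparable with the 18.0%. *Cdkn1c* was also lower (2374 CPM at day 6 and 852 at day 11), whereas its ratio outside the rule was 2.14.

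**Figure D5:**
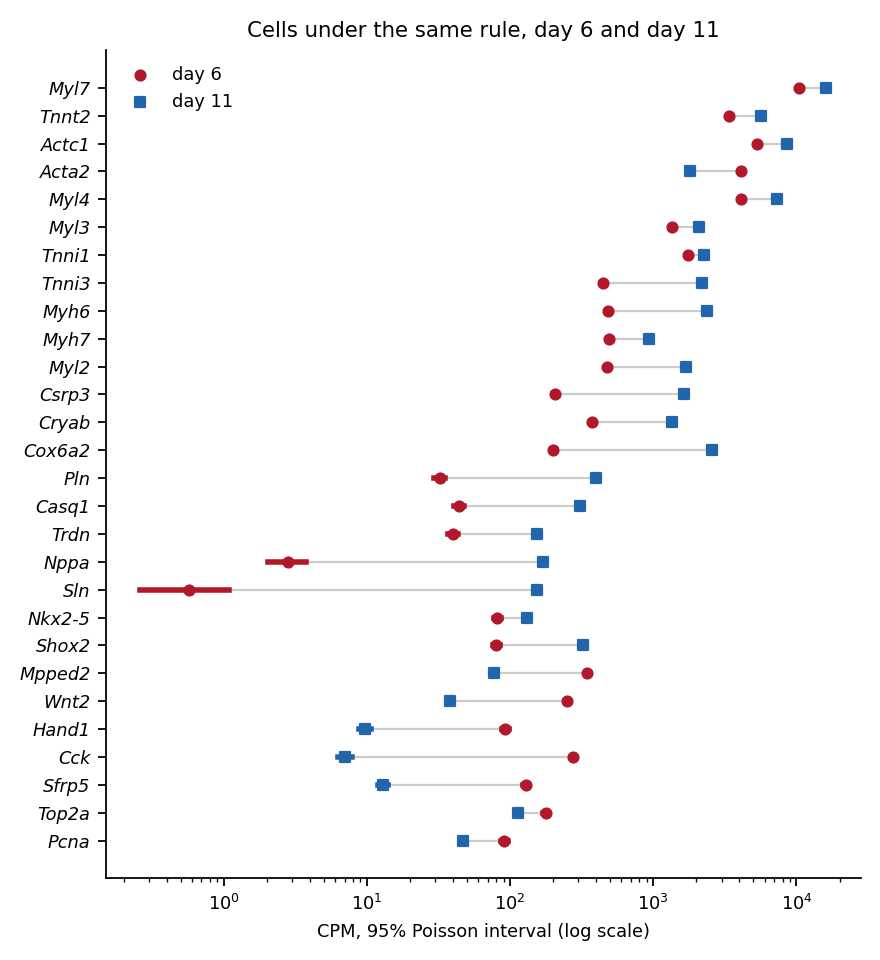
CPM (log scale) of 28 genes in cells under the same rule at day 6 (500 cells, red circles) and day 11 (1596 cells, blue squares), with thick bars for 95% Poisson intervals, most of them narrower than the symbols. *Nppa*, *Sln*, *Pln* and *Cox6a2* lie far to the right at day 11, while *Cck*, *Hand1*, *Sfrp5* and *Wnt2* lie to the left.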

How the data were processed

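Gastruloid cells of the Zx1 line were counted in 1 droplet library (3′ kit) for each of days 4, 5, 6 and 11. The authors deposited, for each library, UMI counts per gene and called cell without normalization. Cell Ranger 3.1.0 and build mm10 are named in the submitters' processing notes, and the matrix headers give 3.1.0 (days 4 to 6) and 6.0.1 (day 11). The libraries hold 149169498 to 236714826 UMIs, 182150138 of them at day 6.

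The deposited counts were used as given. Cells needed 2000 UMIs and a mitochondrial share under 20%. Doublets were scored with Scrublet in scanpy 1.11.5 and left in, and 429 day 6 cells with the highest scores were left out in an alternative. UMIs were summed over cells, genes with 500 or more UMIs over both sets were compared, and genes past 2-fold were counted. Rankings used genes with 50 or more CPM and left out mitochondrial, ribosomal, sex-linked and predicted genes. The 15 highest and 10 lowest genes outside the lists, and the 10 highest and lowest of each split and of day 11, are named, with genes of 35 lists by role. The *Shox2* and *Vsnl1* split was added after the data had been seen, as was the low oxygen list. Thinning and ratios were tested on simulated data (numpy 2.4.6, scipy 1.17.1, Python 3.11.15). The members and lists were chosen with earlier results of these data known. Of rows that share a symbol, that with the most UMIs was used. The alternatives were other limits of the rule, of depth and of the filter, doublets left out, means over cells and other thinning depths. A few genes of the lists and rankings are not reported here.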

Additional observations from a re-analysis of the deposited data

How the results depend on the processing

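With 1 library per day, no spread between gastruloids or cultures was measured, and counting intervals understate the error. No paired analysis was possible because each day is 1 library and no result comes from a test. The share of members was 10.1% with *Myl7* at 20 or more per 10000 UMIs and 6.79% at 50 or more. The counts of genes past 2-fold grew as rarer genes entered. Members over the other cells gave 594 higher and 925 lower genes, against 949 and 1664 with 100 or more summed UMIs and 2550 and 7163 with 1 or more. Day 11 over day 6 gave 633 higher and 458 lower, against 1304 and 871 with 100 or more and 4891 and 3268 with 1 or more. The share of members with *Myl2* was 26.1% when thinned to 10000 UMIs, 14.99% with 2 or more UMIs for a positive cell and 33.0% without thinning. The share with *Mki67* or *Top2a* was 19.6% when thinned to 3000 UMIs, 30.8% at 10000, 14.2% with 2 or more UMIs, 42.2% without thinning, 18.0% without the highest doublet scores and 17.6% in members between the quartiles of depth, an alternative added after the data had been seen. The cause of the last 2 was not tested. The other 34 values of these results stayed within their counting interval or within 1.5 times the count. For 70 named genes under 5 alternatives, 349 of 350 ratios of members over the other cells stayed on their side of 2-fold, the exception being *Nr2f1*, which passed it without the highest doublet scores, and none changed direction, though 177 of the 350 moved beyond their counting interval. Ratios that moved by over 1.5 times without those cells were those of *Actc1*, *Csrp3*, *Mybpc3*, *Myh6* and *Ccnd1*. Depth limits genes with few UMIs, for which a count of 0 in members allows 0.191 CPM.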

Other observations

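Of 18 tested genes of matrix and adhesion, 2 were at least 2-fold higher in members than in the other day 6 cells and 4 at least 2-fold lower, beside 5.40% and 8.41% of all genes tested. The laminin receptor subunit *Itga6* was 264 CPM (256 to 272) against 31.8 (31.0 to 32.7) (8.28-fold, 7.95 to 8.63), and versican (*Vcan*), a proteoglycan of the cardiac jelly that the early myocardium secretes, was 494 CPM against 153 (3.23-fold, 3.15 to 3.31). *Hapln1*, the link protein of the same matrix, was 28.2 CPM against 61.7, and *Col3a1* 22.1 CPM against 64.1. Vimentin (*Vim*), a filament of mesenchymal cells, was 930.5 CPM against 1541, and desmin (*Des*), the muscle filament, 335 CPM against 78.4. From the bottom to the top tertile by sarcomere UMIs, *Vim* was 1216, 934 and 590.3 CPM and *Des* 196, 315 and 522 CPM.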
